A study of Oryza sativa with 12 samples.

Results

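The effect of the PHR2 genotype on the leaf response to phosphate (Pi) withdrawal was measured in rice (Oryza sativa) as a difference of responses. For every gene, the log2 change from control to no Pi medium in the wild type was subtracted from the same change in the mutant. A value above 0 therefore marks a gene that was higher, or less reduced, after Pi withdrawal in the mutant than in the wild type, and a value below 0 marks the opposite. All 12 libraries of the series entered, with 3 libraries in each of 4 groups. Of 39967 genes in the deposited table, 22648 reached an FPKM (fragments per kilobase of transcript, scaled by a library size) of at least 1 in at least 3 libraries and were tested.

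The wild type was the cultivar ZH11, called WT here, and the mutant, called phr2, is labelled as a PHR2 knockout. Plants grew on 1/2MS medium. Plants aged 3 weeks were moved to that medium lacking Pi, and leaves were taken on day 3. The labels give no harvest day for the control plants, so age and handling cannot be told apart from Pi supply, and this holds in both genotypes. The labels do not tell the type of mutation, the number of mutant lines or whether replicates came from separate plants. Each p-value thus reflects how far these particular libraries spread, and part of that spread may be technical.

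PHR2 is a MYB-type transcription factor. In Pi-starved plants it binds the promoters of genes for Pi transporters, acid phosphatases and lipid remodelling enzymes, and in Pi-replete plants SPX proteins bind inositol pyrophosphates and keep it from DNA. Leaves short of Pi are known to slow photosynthesis, to replace phospholipids by lipids without phosphorus, and to recover Pi and carbon from older tissue through autophagy, lipid breakdown and senescence.

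Reads recovered from the steps of the FPKM values ranged from 10109727 to 13122430 per library, and between 19482 and 20611 genes reached an FPKM of 1. Within groups, the correlation of log2(FPKM + 1) between libraries ranged from 0.821 to 0.93. Of all pairs of libraries, the highest correlation, 0.968, joined phr2 no Pi replicate 3 to WT no Pi replicate 2, across genotypes. That mutant library correlated on average at 0.871 with its own group and at 0.904 with the WT libraries, and it was also the library nearest to WT control replicate 3, at 0.95. Without it, the difference of responses moved by more than 1.5 times for 3 of 72 genes named by rule. DGP1 (Os01g0837600) went from 1.79 to 1.16, GLK2 (Os01g0239000) from 0.38 to 0.62 and the clock gene EARLY FLOWERING 3.2 (Os01g0566100) from -1.41 to -2.16. List medians that moved as far are given below in both forms. The PHR2 transcript (Os07g0438800) did not separate the genotypes, with FPKM of 27.5, 17.9 and 22.1 in control and 24.8, 31.5 and 24.7 in no Pi leaves of WT, and 29.6, 26.1 and 21.4 in control and 23.2, 24.2 and 29.7 in no Pi leaves of phr2, so its level does not check the genotype label. Mesophyll markers (small subunit of Rubisco, chlorophyll a-b binding proteins, Rubisco activase, PsbS) were abundant in every library, with summed FPKM from 37320 to 164200 over 29 genes, of which 9 were listed at 0 throughout. Root and endodermis markers summed to 433.2 to 1150, 10 of 48 were listed at 0 throughout, among them the silicon efflux carriers LSI2 and LSI3. Other defining members were present, with FPKM of 16.7 to 209 for the silicon channel LSI1 (Os02g0745100) and 1.2 to 43.9 for CASPARIAN STRIP DOMAIN PROTEIN 2 (Os08g0101900). LSI6 (Os06g0228200), a relative of LSI1 that is not taken as a defining member, had 5.14 to 52.3. Their part in the results was not tested.

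After Pi withdrawal, WT leaves held more transcript of the glyoxylate cycle enzymes isocitrate lyase and malate synthase (log2 changes 6.89 and 6.15), of the electron-transfer flavoprotein path that oxidises amino acids, and of the chloroplast breakdown gene CHLOROPLAST VESICULATION (5.28). They held less of glyceraldehyde-3-phosphate dehydrogenase A (-2.76), of PsbS (-2.44) and of a starch synthesis subunit (-2.12). In phr2 leaves the 6 transcripts given with values had log2 changes of -0.66, 1.71, -0.77, -0.36, -0.47 and 0.00, in the order given. Each of these WT changes passed its test as deposited, and no phr2 change and no difference between the genotypes did. The calls of CHLOROPLAST VESICULATION and of the flavoprotein alpha subunit do not hold under every scaling. With limma and Benjamini-Hochberg adjustment, 0 of 22648 genes (0%) had an adjusted p under 0.05, and the smallest adjusted p was 0.422. The unadjusted p was under 0.05 for 2002 genes (8.84%), 1065 above 0 (4.7%) and 937 below 0 (4.14%), and voom on the recovered reads also called 0. For the WT response, in the fit of all 4 groups, which shares 1 estimate of spread with the phr2 libraries, 534 genes (2.36%) passed an adjusted p under 0.05 and 5671 (25%) an unadjusted one. Of the 534, 217 rose (0.958%) and 317 fell (1.4%). A fit to the 6 WT libraries alone called 0. For the phr2 response limma called 0 (0%) and voom called 0, and a fit to the phr2 libraries alone called 1. In the fit of all 4 groups, 885 genes had an unadjusted p under 0.05 in phr2 (3.91%), 474 higher (2.09%) and 411 lower (1.81%). That WT has calls and phr2 has none does not show that the genotypes differ, since the test of the difference called none.

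The WT calls rest on few libraries. Their number was 0 without WT control replicate 2 or without WT no Pi replicate 1, and 1 without WT control replicate 1 or without WT no Pi replicate 3. It was 18 without phr2 no Pi replicate 2 and 67 without replicate 1 of that group. Leaving out control replicate 2, 1 or 3 of phr2 gave 80, 157 or 160, and leaving out WT control replicate 3 gave 3155. Each statement below that a gene rose or fell in WT carries this limit. The interaction itself had 5 calls without WT no Pi replicate 2 and 26 without phr2 control replicate 1. The sizes of their changes are taken here from the fit of all 12 libraries. Of the 5, all had the larger mean change in WT. Of the 26, 23 had it in phr2, and 11 met the size limits, set out below, for a response in phr2 only.

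How many genes lay above or below 0 depends on how the libraries are scaled. The FPKM of a library summed to between 1162550 and 2292700, highest in WT control replicate 1. Dividing reads by length and FPKM gave the size that each library was scaled to, which was 0.674 to 1.21 times the recovered reads, lowest in the same library, so FPKM is not scaled by the depth given above. After rescaling to equal FPKM sums, the median of all genes moved from 0.02 to -0.32 for the difference and from -0.01 to 0.40 in WT, and with voom on the recovered reads to -0.35 and 0.48. The genes at an unadjusted interaction p under 0.05 then split into 458 above and 1883 below 0 (19.6% above, against 53.2% as deposited), and with voom into 514 and 1892 (21.4% above). The WT calls became 937 that rose and 156 that fell, and with voom 871 and 127. Of the 534 genes called in WT as deposited, all kept their direction under rescaling, under quantile normalization and with voom. Of the 217 that rose, 217 passed after rescaling, 102 after quantile normalization and 206 with voom. Of the 317 that fell, 152, 127 and 125 did. Among the 34 genes named by rule and called in WT, 25 passed under all of these scalings. Quantile normalization ended the call of 6: PHOSPHOENOLPYRUVATE CARBOXYLASE 4 (adjusted p = 0.0579, limma), the L10 gene Os03g0284400 (0.0537), DIVINYL REDUCTASE (0.052), the flavoprotein alpha subunit (0.0522), WRKY GENE 68 (0.0609) and AUTOPHAGY-RELATED PROTEIN 2 (0.0617). The other 3 are marked where they are described. Of the 38 not called, 13 passed after rescaling, 9 of them with voom too. Medians of gene lists are therefore also given relative to the median of all genes.

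The responses of the 2 genotypes were weakly correlated across genes. The correlation of the WT response with the phr2 response over 22648 genes was 0.251 (Pearson) and 0.294 (Spearman), a description across genes that share libraries and are not independent. Without phr2 no Pi replicate 3 these values were 0.27 and 0.306. The spread of the responses was wider in WT, with an SD over genes of 0.96 on the log2 scale against 0.62 in phr2. Groups of libraries did not overlap between control and no Pi for 24.8% of all genes in WT and for 9.75% in phr2, and in WT but not in phr2 for 21.8%. They separated in phr2 but not in WT for 6.76%, and in both with the same direction for 2.52%.

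**Figure D1:**
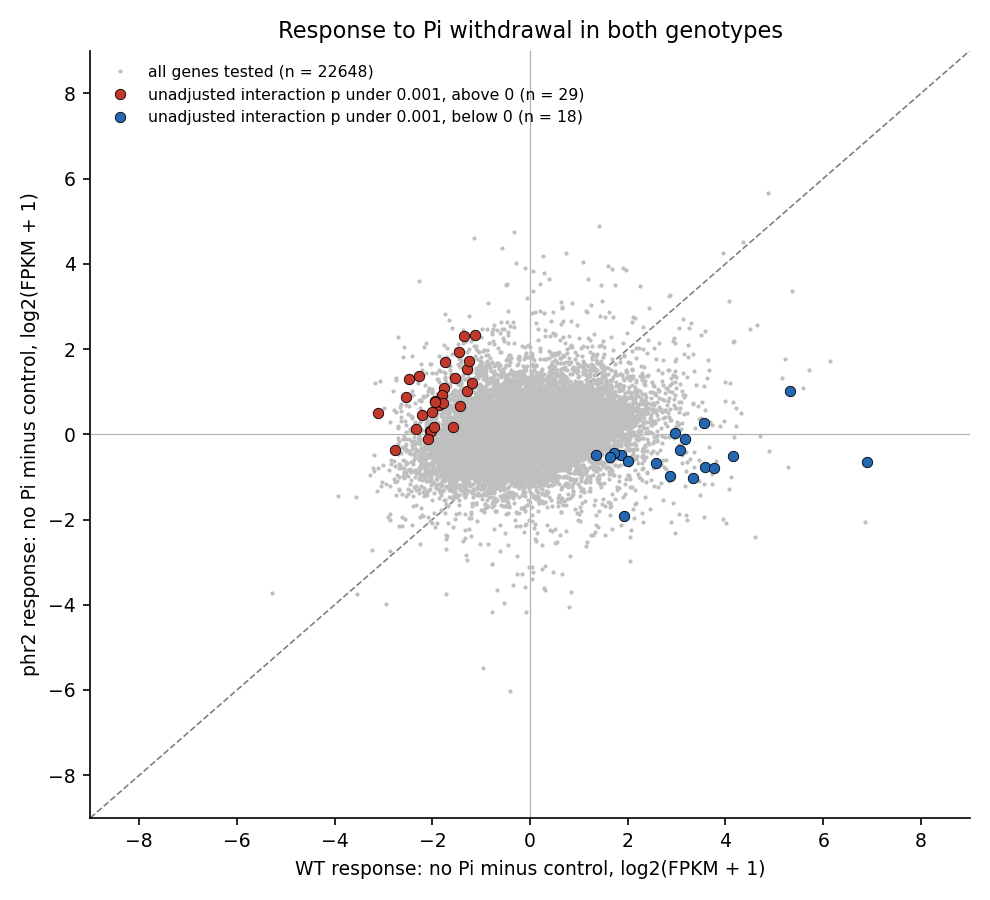
Each point is 1 of 22648 genes, with the log2 change from control to no Pi in WT on the x axis and in phr2 on the y axis, on the log2(FPKM + 1) scale. The dashed line marks equal responses, and the 47 coloured genes have an unadjusted interaction p under 0.001; 40 of them have the larger change in WT, so they lie farther from 0 along the x axis than along the y axis.

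A set of 47 genes (0.208%) had an unadjusted interaction p under 0.001, 29 above 0 (0.128%) and 18 below 0 (0.0795%). Their differences of responses were 1.75 to 7.55 in size on the log2 scale, and 40 of the 47 had the larger change in WT. By size, 15 responded in WT only, meaning a log2 change of at least 1 in WT and under 0.5 in phr2. The remaining genes had mean changes in opposite directions by at least 0.5 in each genotype (31 genes) or unequally (1 gene), and 0 of the 47 responded in phr2 only. In 43 the WT groups did not overlap, in 18 the phr2 groups did not, and in 14 neither overlapped and the directions were opposite (0.472% of all genes). The 47 were chosen by the interaction, which favours such an order, so nothing is read from that share. The group mean farthest from the median of the other 3 was WT control for 15 genes above 0 and 8 below, WT no Pi for 8 and 9, phr2 control for 6 and 1, and phr2 no Pi for 0 on either side. Over all genes tested those shares were 42.1%, 28%, 18.5% and 11.4% in the same order. All 47 kept the sign of the difference under rescaling, quantile normalization and voom, and an unadjusted p under 0.05, but only 24, 35 and 17 of them kept a p under 0.001. The count itself moved with single libraries. It was 16 without WT control replicate 2, 17 without WT no Pi replicate 3 or without phr2 no Pi replicate 2, 21 without phr2 control replicate 3, 30 without WT no Pi replicate 1, and 31 without phr2 control replicate 2 or without phr2 no Pi replicate 3. Leaving out phr2 control replicate 1, WT no Pi replicate 2 or WT control replicate 3 gave 92, 97 or 110. The same setting without phr2 no Pi replicate 3 left 10 genes in the class that responded in WT only.

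The 8 annotated genes with the smallest p above 0 had a lower mean in WT no Pi than in WT control, and in phr2 a mean that was equal or higher. Each has an adjusted interaction p of 0.422 (limma), so none of these differences passed. OVATE FAMILY PROTEIN 3 (Os01g0732300, chr1:30542800-30544054 in the authors' coordinates) belongs to a family of transcriptional repressors of organ growth. Its FPKM was 9.81, 18.8 and 10.6 in control and 0.161, 1.24 and 0.443 in no Pi leaves of WT, and 1.5, 0.183 and 0.52 in control and 0.668, 2.01 and 1.57 in no Pi leaves of phr2. WT control stood alone at the high end, while the 3 other groups lay at 2.01 or below and the phr2 groups overlapped. The transcript fell in WT, with a log2 change of -3.12 ± 0.42 (SE, n = 3 libraries per group; limma adjusted p = 0.022), the phr2 change was 0.51 ± 0.42, and the difference was 3.63 ± 0.59 (95% interval 2.34 to 4.92).

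PHOSPHOLIPASE D ALPHA 5 (Os06g0604300, chr6:23921940-23924919) removes the head group of phospholipids and yields phosphatidic acid. Its FPKM was 5.58, 12.2 and 6.81 in control and 1.36, 1.58 and 0.954 in no Pi leaves of WT, and 1.49, 2.54 and 2.0 in control and 4.3, 4.78 and 3.32 in no Pi leaves of phr2. The groups did not overlap in either genotype and the order was reversed, with no Pi below control in WT and above control in phr2. The difference of responses was 2.72 ± 0.49 on the log2 scale, from a WT change of -1.95 ± 0.35 that passed (limma adjusted p = 0.0332) and a phr2 value of 0.78 ± 0.35 that did not pass.

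SULPHATE TRANSPORTER 2;1 (Os03g0195500, chr3:4957502-4959448) encodes a sulfate carrier of the plasma membrane family. FPKM of this carrier was 9.7, 10.6 and 6.78 in control and 1.47, 2.13 and 1.92 in no Pi leaves of WT, and 2.62, 2.93 and 2.25 in control and 10.1, 5.99 and 2.96 in no Pi leaves of phr2. Control and no Pi were again separate in both genotypes and in opposite order, although phr2 no Pi replicate 3 lay just above the phr2 controls. The difference was 2.72 ± 0.55, with a fall in WT (limma adjusted p = 0.0442) that did not pass after rescaling, quantile normalization or voom (adjusted p = 0.0625, 0.0552 and 0.0659). The locus overlaps Os03g0195475 on the other strand, and no source says whether counting used strand, so reads of the pair may not be told apart.

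PHOSPHOGLYCERATE KINASE 3 (Os05g0496200, chr5:24378361-24381743), an enzyme shared by glycolysis and the Calvin cycle, responded in WT only by the size limits above. It was measured at FPKM of 326, 389 and 324 in control and 116, 69.6 and 72.2 in no Pi leaves of WT, and 155, 154 and 139 in control and 133, 203 and 143 in no Pi leaves of phr2. WT control was above every other library, and the phr2 groups overlapped at levels between the 2 WT groups. The kinase fell in WT (log2 change -2.04 ± 0.29, limma adjusted p = 0.0222), the phr2 value was 0.07 ± 0.29, and the difference was 2.11 ± 0.41.

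A copper protein gene and a wall protein gene also fell in WT. The cupredoxin-domain gene Os06g0216700, of a class of copper-binding electron carriers, had FPKM of 73.7, 67.9 and 43.2 in control and 16.5, 9.73 and 5.17 in no Pi leaves of WT, and 13.5, 24.9 and 22.7 in control and 38.9, 56 and 23.6 in no Pi leaves of phr2. It fell in WT (limma adjusted p = 0.0332) and overlapped in phr2, with a difference of 3.42 ± 0.64. An extensin-domain gene of the pollen Ole e 1 type (Os10g0206500) differed by 2.53 ± 0.50 and also fell in WT (limma adjusted p = 0.0332); it overlaps Os10g0206650 on the same strand.

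In 2 of the 8 the phr2 side was the larger. A gene of the disease resistance response family (Os11g0215100) had FPKM of 30.7, 16.4 and 15.1 in control and 7.02, 8.16 and 4.89 in no Pi leaves of WT, and 3.52, 1.63 and 3.7 in control and 7.13, 26.5 and 12.9 in no Pi leaves of phr2. The order was opposite in the genotypes without overlap in either, the WT change of -1.45 ± 0.48 did not pass (limma adjusted p = 0.102), the phr2 change was 1.93 ± 0.48 and the difference was 3.39 ± 0.67. HYBRID PROLINE- OR GLYCINE-RICH PROTEIN 19 (Os10g0552700), of a family of cell wall proteins, had FPKM of 9.83, 47.8 and 34 in control and 10.2, 10.7 and 7.58 in no Pi leaves of WT, and 1.64, 4.99 and 2.43 in control and 13.6, 23.1 and 17.1 in no Pi leaves of phr2. Its phr2 libraries separated, no Pi above control, while the WT libraries overlapped, and the difference was 3.64 ± 0.74.

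The 8 annotated genes with the smallest p below 0 all rose in WT and had a lower mean in phr2 no Pi than in phr2 control. Os10g0463800 (chr10:17112008-17115350), a gene with a domain of unknown function, led them. Its FPKM was 3.48, 8.67 and 13.3 in control and 200.4, 103 and 163 in no Pi leaves of WT, and 27.7, 28.8 and 86.1 in control and 35, 27 and 24.2 in no Pi leaves of phr2. All 3 WT no Pi libraries exceeded every other library, while the phr2 groups overlapped. The rise in WT was 4.14 ± 0.51 on the log2 scale (limma adjusted p = 0.0174), the phr2 value was -0.52 ± 0.51, and the difference was -4.66 ± 0.73 (95% interval -6.25 to -3.08).

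ISOCITRATE LYASE (Os07g0529000, chr7:20691213-20693521) splits isocitrate in the glyoxylate cycle, by which cells turn fatty acids into sugars, and had the largest difference of the 16. Its FPKM was 0.074, 1.95 and 0.107 in control and 1122, 52 and 98 in no Pi leaves of WT, and 2.77, 11.9 and 14.5 in control and 18.2, 4.7 and 0.756 in no Pi leaves of phr2. The 3 WT no Pi libraries exceeded the rest but spread widely, replicate 1 far above the others, and the phr2 groups overlapped, with phr2 control above WT control. The WT rise was 6.89 ± 1.11 (limma adjusted p = 0.0301), the phr2 value -0.66 ± 1.11, and the difference -7.55 ± 1.57 (95% interval -10.98 to -4.12).

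ORNITHINE DELTA-AMINOTRANSFERASE (Os03g0643300, chr3:24810090-24818037), which connects arginine breakdown with proline and glutamate, had FPKM of 21.8, 16.9 and 18.8 in control and 109, 57 and 80.1 in no Pi leaves of WT, and 38.5, 48.3 and 82.4 in control and 54.1, 32.2 and 22.5 in no Pi leaves of phr2. WT control was the lowest group, and the phr2 groups overlapped. The difference of responses was -2.64 ± 0.56, from a rise in WT (limma adjusted p = 0.0406) and a phr2 value of -0.64 ± 0.40. It overlaps Os03g0643433 on the other strand.

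Among genes of signalling and protein sorting, PIN LIKES 1 (Os09g0491740, chr9:18978153-18983471), of a family known in Arabidopsis to hold auxin at the endoplasmic reticulum, had FPKM of 8.59, 25.7 and 12.5 in control and 201, 49.999 and 128 in no Pi leaves of WT, and 29.5, 29.1 and 68.2 in control and 27.7, 14 and 18 in no Pi leaves of phr2. Neither genotype overlapped and the order was reversed, with a WT rise (limma adjusted p = 0.0385) and a difference of -3.85 ± 0.79. CALCINEURIN B-LIKE PROTEIN 9 (Os01g0579600), a calcium sensor, had FPKM of 3.0, 3.5 and 4.33 in control and 12, 16 and 20.1 in no Pi leaves of WT, and 23.7, 32.9 and 23 in control and 14.9, 26.6 and 15.5 in no Pi leaves of phr2. It rose in WT (limma adjusted p = 0.0332) towards the levels of phr2, where the media overlapped, and the difference was -2.36 ± 0.48. A gene for the SRP54 subunit of the signal recognition particle (Os05g0509500), which guides nascent proteins to membranes, had FPKM of 0, 2.45 and 0.947 in control and 34.4, 9.1 and 18.5 in no Pi leaves of WT, and 11.1, 11.5 and 18.5 in control and 11.1, 6.04 and 3.16 in no Pi leaves of phr2. Its WT control libraries were the lowest, the phr2 groups overlapped by a single library, and the difference was -4.36 ± 0.82.

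The last 2 of the 8 were low transcripts. The 2-oxoglutarate-dependent dioxygenase Os10g0558700 had FPKM of 0, 0.502 and 0.853 in control and 40.1, 4.15 and 21.8 in no Pi leaves of WT, and 6.1, 5.39 and 3.86 in control and 3.47, 3.52 and 1.22 in no Pi leaves of phr2, and Os02g0730075, which carries a benzaldehyde dehydrogenase description, had a difference of -3.24 ± 0.57. Both rose in WT (limma adjusted p = 0.0332 and 0.0301), and in both phr2 no Pi lay below phr2 control without overlap. Both overlap genes on the other strand. Os02g0730075 had FPKM of 10.1, 2.72 and 8.02 in WT no Pi, the only group in which every library reached 1. It passed the filter only through that group, so its values are a description.

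**Figure D2:**
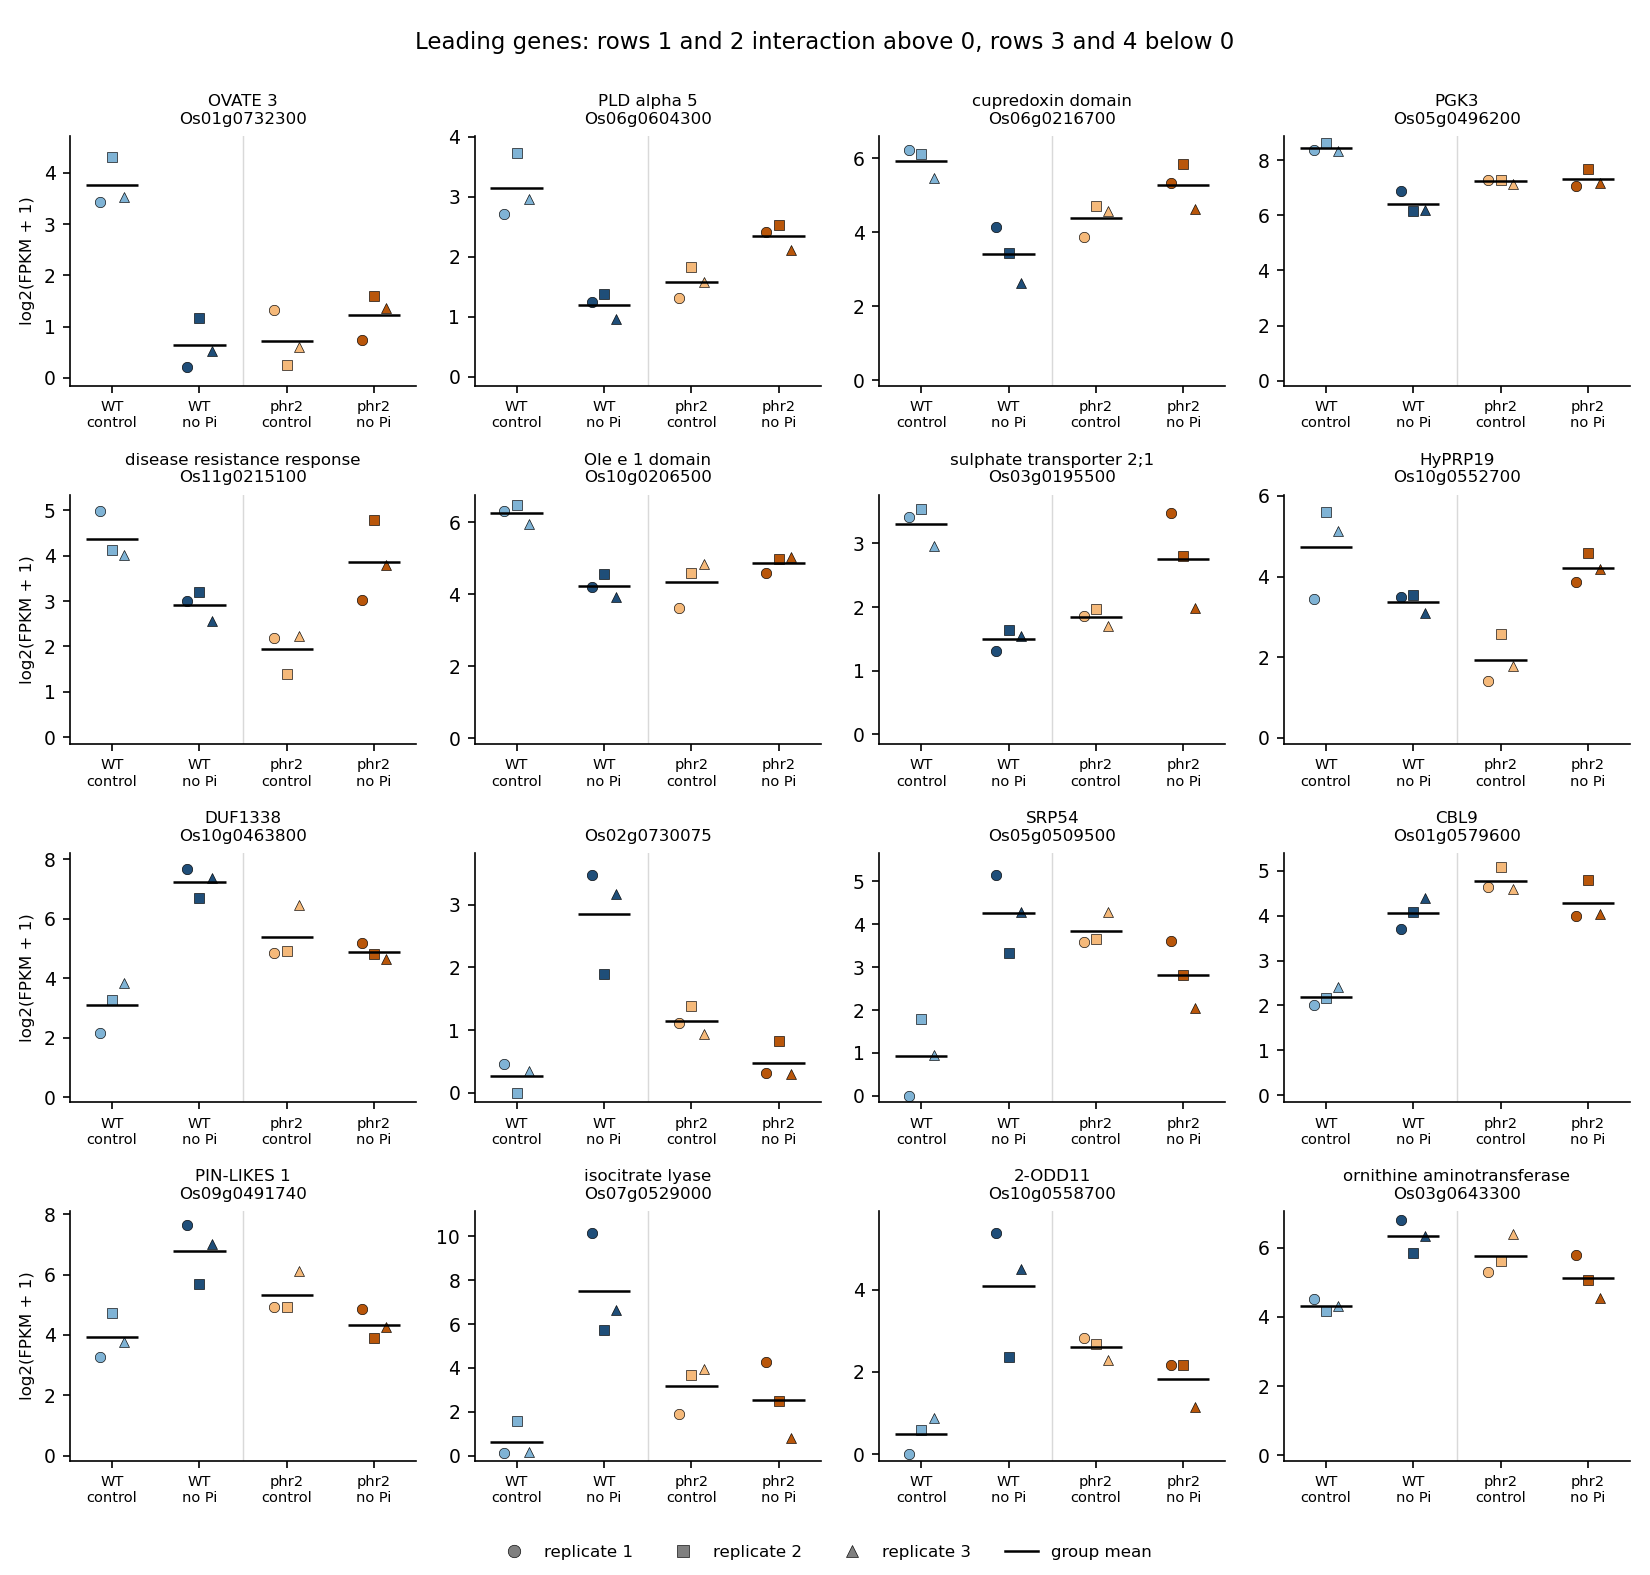
Panels give log2(FPKM + 1) of the 16 leading annotated genes in each of the 12 libraries, with 3 points per group and a bar at the group mean; genes above 0 come first. WT control is the high group for most genes above 0 and WT no Pi the high group for most genes below 0. For Os11g0215100 and HYBRID PROLINE- OR GLYCINE-RICH PROTEIN 19 (Os10g0552700) the phr2 groups lie farther apart than the WT groups.

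Functions were compared with gene lists chosen by annotation, each described by its counts and by its median response beside those of all genes, whose median was -0.01 in WT, 0.02 in phr2 and 0.02 for the difference. No list holds a gene that passed the interaction test, and in phr2 none passed in any list. Counts at an unadjusted interaction p under 0.05 are read against 4.7% above 0 and 4.14% below 0 of all genes, 8.84% in all. Counts of genes that rose or fell in WT are read against 0.958% and 1.4% of all genes.

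Genes of light harvesting and the photosystems stood lower in WT no Pi, and their median response was nearer 0 in phr2. The median response of the 51 genes tested was -1.05 in WT, -0.29 in phr2 and 0.85 for the difference, and 42 of 51 differences were above 0. In WT 6 of them fell and 2 rose, and 7 had an unadjusted interaction p under 0.05 above 0 and 2 below. Expressed against the median of all genes, the list's level on the log2 scale was 6.65, 6.14 and 5.59 in control and 4.84, 4.69 and 4.72 in no Pi leaves of WT, and 5.54, 5.77 and 5.73 in control and 5.54, 5.45 and 5.05 in no Pi leaves of phr2. The members that rose in WT were Os02g0610700 (log2 change 1.66 ± 0.34, limma adjusted p = 0.0438, and 0.0574 after quantile normalization), a chlorophyll-binding gene, and Os07g0147550, for a photosystem II polypeptide (log2 change 4.64 ± 0.51, limma adjusted p = 0.0133), with 2.56 ± 0.51 in phr2; both were picked out after their values were seen. The phr2 libraries as a list thus lay between the WT groups, apart from phr2 control replicates 2 and 3, which were inside the WT control range. Mesophyll markers, many of which are members of this list, summed to FPKM of 95030 to 164200 in control and 37320 to 53640 in no Pi leaves of WT. In phr2 the sums were 80500 to 122400 in control and 56510 to 118100 in no Pi leaves. In these bulk leaf samples, fewer cells of a type and less RNA per cell cannot be told apart. The list's median relative to all genes, 0.83, kept its sign in all 26 alternatives, with 0.19 the lowest and 1.24 the highest.

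PsbS (Os01g0869800), the photosystem II subunit that lets excess light energy dissipate as heat, had FPKM of 11762, 7715 and 3558 in control and 1508, 1259.9 and 1058 in no Pi leaves of WT, and 2983, 4096 and 4165 in control and 2665, 3319.7 and 2169 in no Pi leaves of phr2. The WT groups separated, while the phr2 groups overlapped. It fell in WT (log2 change -2.44 ± 0.43, limma adjusted p = 0.0332), the phr2 value was -0.47 ± 0.43, and the difference of 1.97 ± 0.61 did not pass (limma adjusted p = 0.516). A photosystem I chlorophyll-binding antenna gene (Os09g0439500) was lower without overlap in both genotypes, with log2 changes of -2.88 in WT (limma adjusted p = 0.0301) and -0.85 in phr2, where it did not pass.

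Of 29 chlorophyll synthesis genes, 4 fell and 0 rose in WT, with medians of -0.67 in WT, -0.20 in phr2 and 0.52 for the difference. The 4 with an unadjusted interaction p under 0.05 were all above 0. YELLOW-GREEN LEAF 18 (Os06g0132400), the methyltransferase acting on magnesium protoporphyrin, had FPKM of 1865, 2199.5 and 946 in control and 162, 356 and 82.7 in no Pi leaves of WT, and 658, 874 and 638 in control and 466, 346 and 434 in no Pi leaves of phr2. No Pi was below control in both genotypes without overlap. Its log2 change in WT was -3.21 ± 0.49 (limma adjusted p = 0.0291), the phr2 value -0.80 ± 0.49 did not pass, and the difference was 2.42 ± 0.69. DIVINYL REDUCTASE (Os03g0351200), a later step of the same path, fell in WT (log2 change -1.91 ± 0.40, limma adjusted p = 0.044) against a phr2 value of -0.45 ± 0.40. This list's median relative to all genes was 0.50 and dropped to 0.09 without WT control replicate 3.

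Calvin cycle genes had medians of the same sign and smaller size. Over 38 genes the median was -0.45 in WT, -0.32 in phr2 and 0.34 for the difference; 6 fell and 0 rose in WT, and all 7 at an unadjusted interaction p under 0.05 were above 0. After rescaling to equal FPKM sums the median difference turned to -0.10, while relative to all genes it stayed above 0, at 0.23. Chloroplast glyceraldehyde-3-phosphate dehydrogenase A (Os04g0459500), which makes triose phosphate, had FPKM of 5219, 6011 and 2828 in control and 772, 652 and 563 in no Pi leaves of WT, and 1532, 2219.6 and 2436 in control and 1531, 2035 and 1259.7 in no Pi leaves of phr2. Every WT control library exceeded every WT no Pi library by a wide margin, and the phr2 groups overlapped between them. Its log2 change in WT was -2.76 ± 0.37 (limma adjusted p = 0.022), the phr2 value -0.36 ± 0.37 and the difference 2.40 ± 0.52 (limma adjusted p = 0.422). The list's median relative to all genes was 0.32 and became 0.13 without phr2 no Pi replicate 2.

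**Figure D3:**
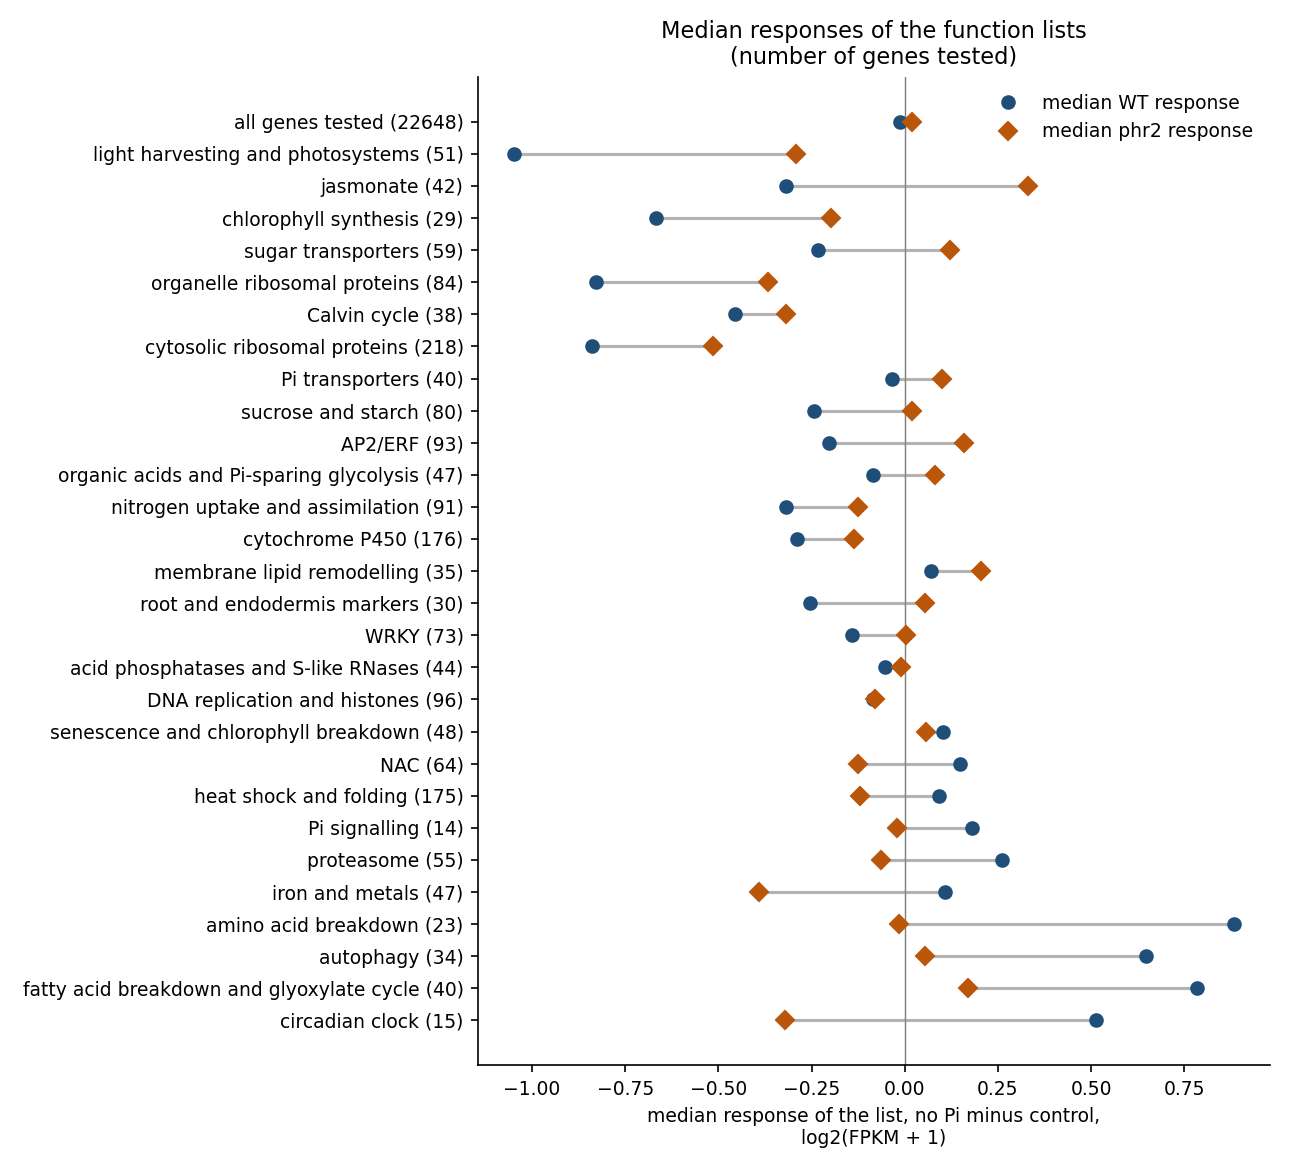
Each function list is placed by the median log2 response of its genes in WT and in phr2. Light harvesting, chlorophyll synthesis and the ribosomal lists lie to the left in WT, amino acid breakdown, fatty acid breakdown and autophagy lie to the right, and phr2 medians span a narrower range.

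Among starch and sucrose genes, a subunit of the starch-committing enzyme fell in WT. ADP-GLUCOSE PYROPHOSPHORYLASE SMALL SUBUNIT 2 (Os08g0345800), that subunit, had FPKM of 32.8, 51.9 and 28.1 in control and 10.8, 7.77 and 5.18 in no Pi leaves of WT, and 8.36, 12.5 and 9.68 in control and 11.8, 7.65 and 11.2 in no Pi leaves of phr2. The highest libraries of all were those of WT control, and the phr2 groups overlapped near the WT no Pi level. The transcript fell in WT (log2 change -2.12 ± 0.36, limma adjusted p = 0.0332), with a phr2 value of 0.00 ± 0.36 and a difference of 2.12 ± 0.51. It overlaps a gene on the other strand. The large subunit gene of the same enzyme (Os03g0735000) gave -1.67 ± 0.45 in WT, which did not pass (limma adjusted p = 0.0685), and 0.47 ± 0.45 in phr2. Over the 80 genes of this list the median was -0.24 in WT, 0.02 in phr2 and 0.22 for the difference. After rescaling the WT median turned to 0.24 and the difference to -0.06, against -0.17 and 0.27 relative to all genes. In WT 3 fell and 1 rose, and 9 stood above 0 and 2 below at an unadjusted interaction p under 0.05. Relative to all genes this median was 0.20, with 0.10 without phr2 no Pi replicate 3, and ranged from 0.05 without WT control replicate 2 to 0.60 without WT control replicate 1.

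Of 59 sugar transporters 1 rose and 0 fell in WT, and of 47 organic acid genes 0 rose and 2 fell. Over all genes 0.958% rose and 1.4% fell. A probable polyol transporter (Os10g0360100) rose in WT (log2 change 3.67 ± 0.83, limma adjusted p = 0.0456, but 0.0535 after quantile normalization and 0.0509 with voom) and gave -0.29 ± 0.83 in phr2. SUCROSE TRANSPORTER 1 (Os03g0170900), which loads sucrose into the phloem, overlapped between media in WT and separated in phr2, at 0.94, without passing. PHOSPHOENOLPYRUVATE CARBOXYLASE 4 (Os01g0208700), a chloroplast form known in rice leaves to feed malate to ammonium assimilation, fell in WT (log2 change -2.36 ± 0.47, limma adjusted p = 0.0406) against 0.08 ± 0.47 in phr2. The median difference was 0.41 over 59 sugar transporters (5 above and 2 below 0 at an unadjusted p under 0.05) and 0.17 over 47 organic acid genes (5 above and 1 below), with 0.02 and -0.25 after rescaling.

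Fatty acid breakdown and the glyoxylate cycle had medians of the other sign. The median response of the 40 genes tested was 0.78 in WT, 0.17 in phr2 and -0.64 for the difference, 8 rose and 0 fell in WT, and 10 stood below 0 and 2 above at an unadjusted interaction p under 0.05, against 4.14% and 4.7% of all genes. MALATE SYNTHASE (Os04g0486950), the partner of isocitrate lyase in the glyoxylate cycle, had FPKM of 1.94, 12 and 3.66 in control and 1153, 125 and 439 in no Pi leaves of WT, and 6.27, 17 and 9.43 in control and 66.5, 27.7 and 23.8 in no Pi leaves of phr2. No Pi exceeded control without overlap in both genotypes, and the WT no Pi libraries were the 3 highest. The rise in WT was 6.15 ± 0.77 (limma adjusted p = 0.0174), the phr2 value of 1.71 ± 0.77 did not pass, and the difference was -4.44 ± 1.10 (limma adjusted p = 0.431). This enzyme is therefore not a case of a response in WT only.

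The acyl-CoA oxidases, which start peroxisomal fatty acid oxidation, were not chosen by the naming rule but by their values. ACYL-COA OXIDASE 4 (Os05g0163700) rose in WT (log2 change 2.49 ± 0.44, limma adjusted p = 0.0332) and gave 0.22 ± 0.44 in phr2. A second oxidase (Os11g0605500) rose in WT (log2 change 2.80 ± 0.50, limma adjusted p = 0.0332) and was higher without overlap in phr2, at 0.69 ± 0.50, without passing. Within WT, the list's level minus the median of all genes was 0.83, 0.82 and 1.37 in control and 2.08, 1.82 and 2.27 in no Pi leaves. In phr2 it was 1.61, 1.33 and 1.36 in control and 1.57, 1.64 and 1.53 in no Pi, so the mutant libraries lay below all WT no Pi libraries and, with the exception of phr2 control replicates 2 and 3, above all WT controls. Relative to all genes the median difference was -0.66, from -0.45 without WT control replicate 2 to -0.96 without WT control replicate 3.

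Genes of amino acid breakdown also had a median above 0 in WT and below 0 for the difference. Their medians over 23 genes were 0.88 in WT, -0.02 in phr2 and -0.55 for the difference; 2 rose and 0 fell in WT, and 7 stood below 0 and 1 above at an unadjusted interaction p under 0.05. The 2 that rose pass electrons from branched-chain amino acid and lipid oxidation to the respiratory chain. ELECTRON-TRANSFER FLAVOPROTEIN:UBIQUINONE OXIDOREDUCTASE (Os10g0516300) had FPKM of 2.23, 1.68 and 6.43 in control and 19.1, 16.2 and 63.3 in no Pi leaves of WT, and 7.19, 7.29 and 7.29 in control and 6.64, 9.12 and 9.83 in no Pi leaves of phr2. WT no Pi lay above all 9 other libraries, and phr2 stayed in a narrow band. It rose in WT (log2 change 2.81 ± 0.52, limma adjusted p = 0.0336), with 0.19 ± 0.52 in phr2 and a difference of -2.62 ± 0.73 (limma adjusted p = 0.481). Its electron donor, the ELECTRON TRANSFER FLAVOPROTEIN SUBUNIT alpha (Os03g0835400), rose in WT (log2 change 2.11 ± 0.45, limma adjusted p = 0.0442) and gave -0.02 ± 0.45 in phr2. Both overlap a gene on the other strand. Relative to all genes the list's median difference was -0.57, and -0.37 without phr2 no Pi replicate 3.

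Autophagy genes, whose products enclose cell contents for breakdown in the vacuole, had medians of 0.65 in WT, 0.05 in phr2 and -0.60 for the difference over 34 genes. Only AUTOPHAGY-RELATED PROTEIN 2 (Os06g0267600) passed in WT, with a log2 change of 2.25 ± 0.53 (limma adjusted p = 0.0495) against 0.41 ± 0.53 in phr2. In WT 14 of the 34 (41.2%) stood higher at an unadjusted p under 0.05 and 0 lower, against 12.3% and 12.7% of all genes. In phr2 0 stood on either side, where the shares of all genes were only 2.09% and 1.81%. An unadjusted interaction p under 0.05 was reached by 3, all below 0. This share of 8.82% is about the 8.84% of all genes. The list's level minus the median of all genes was 0.54, -0.05 and 0.04 in control and 0.89, 0.47 and 1.01 in no Pi leaves of WT, and 0.61, 0.90 and 0.82 in control and 0.86, 0.92 and 0.54 in no Pi leaves of phr2. WT control was thus the low group, with its replicate 1 overlapping the others. The proteasome, which degrades single proteins in the cytosol and nucleus, had smaller medians of 0.26, -0.06 and -0.30 over 55 genes. At an unadjusted interaction p under 0.05 it had 2 genes below 0 (3.64%, under the share of all genes).

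**Figure D4:**
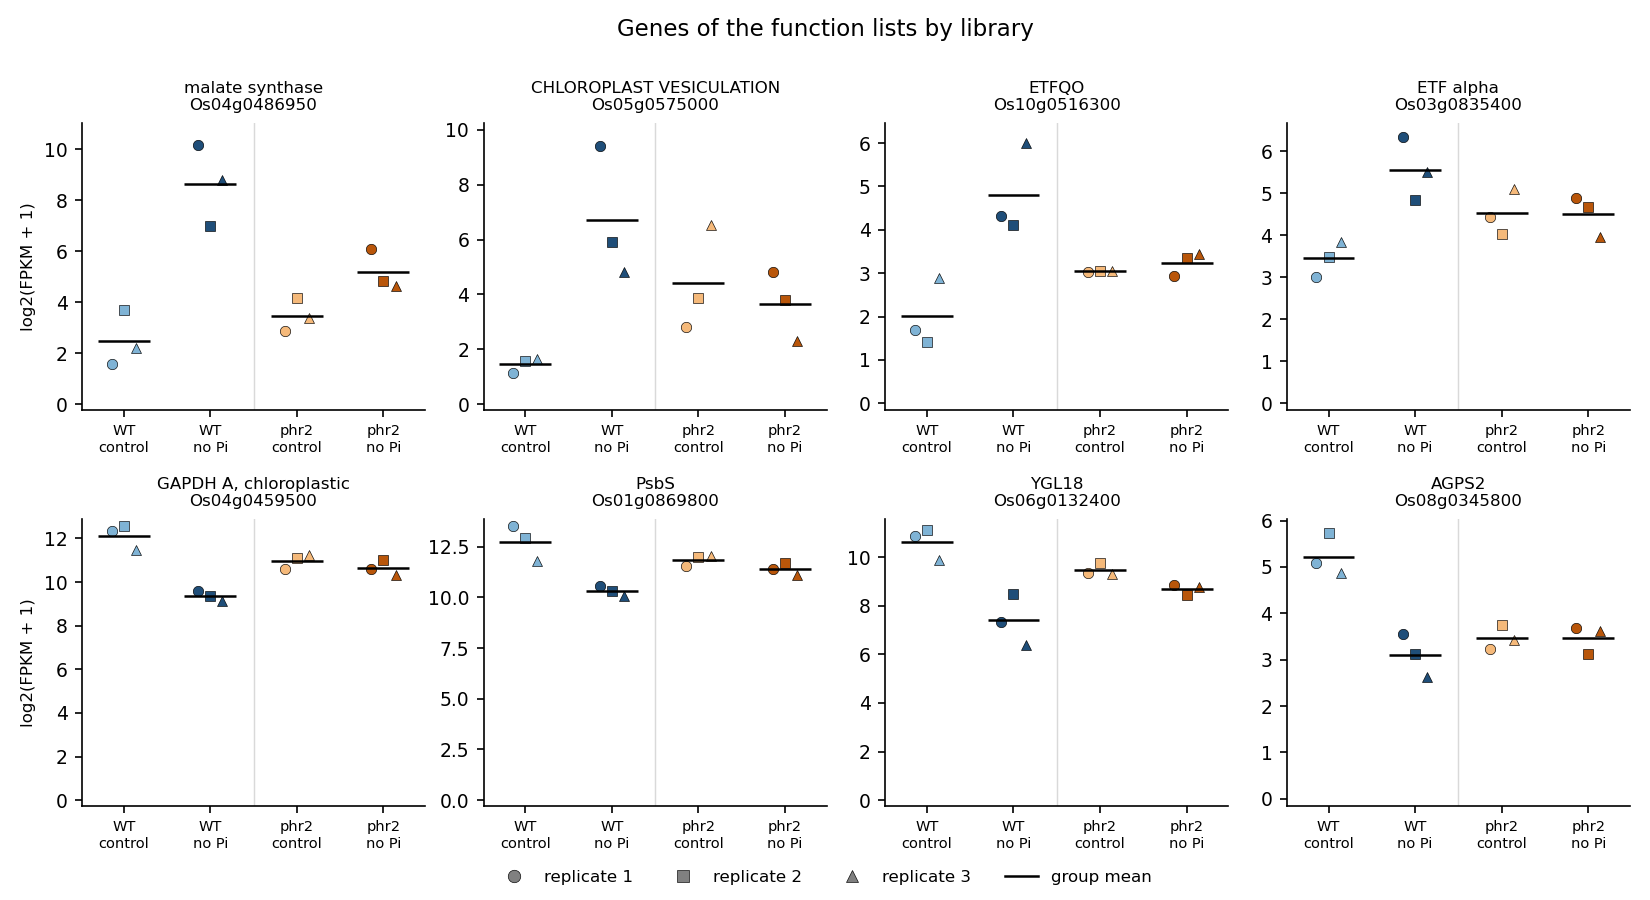
Panels give log2(FPKM + 1) in each library for malate synthase, CHLOROPLAST VESICULATION, the electron-transfer flavoprotein oxidoreductase and alpha subunit, glyceraldehyde-3-phosphate dehydrogenase A, PsbS, YELLOW-GREEN LEAF 18 and the ADP-glucose pyrophosphorylase small subunit, with a bar at each group mean. WT control and WT no Pi are separate in all 8 panels, and the phr2 groups overlap in all but malate synthase and YELLOW-GREEN LEAF 18.

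Senescence and chlorophyll breakdown genes had medians, as deposited, close to those of all genes, 0.10 in WT, 0.06 in phr2 and -0.14 for the difference over 48 genes. After quantile normalization the WT median was 0.39. At an unadjusted interaction p under 0.05, 3 stood above and 6 below 0 (18.8%, against 8.84% of all genes). In WT 2 members rose and 0 fell. CHLOROPLAST VESICULATION (Os05g0575000), known from Arabidopsis to carry chloroplast proteins to breakdown under stress, had FPKM of 1.18, 2.0 and 2.12 in control and 687, 59.8 and 27.5 in no Pi leaves of WT, and 6.05, 13.6 and 92.6 in control and 27.4, 13 and 3.89 in no Pi leaves of phr2. The WT no Pi libraries were above all WT controls and spread from 27.5 to 687, and in phr2 control replicate 3 reached 92.6, above every phr2 no Pi library. Its rise in WT was 5.28 ± 1.15 (limma adjusted p = 0.0442, but 0.0539 after quantile normalization and 0.0623 with voom), the phr2 value -0.77 ± 1.15 and the difference -6.05 ± 1.63 (limma adjusted p = 0.471). A rhodanese-type SULFURTRANSFERASE 9 gene (Os06g0725000), whose Arabidopsis relative DIN1 marks dark and senescence, rose in WT (log2 change 3.99 ± 0.76, limma adjusted p = 0.035) and gave 0.79 ± 0.76 in phr2. NON-YELLOW COLORING 3 (Os06g0354700), the chlorophyll-degrading pheophytinase, chosen after its values were seen, gave 2.45 ± 0.58 in WT, which did not pass (limma adjusted p = 0.0501) but did after rescaling (0.034) and with voom (0.0427), and 0.29 ± 0.58 in phr2.

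No gene of the lists most closely tied to Pi passed the test between genotypes. Of 14 Pi signalling genes, 2 stood above 0 and 3 below at an unadjusted interaction p under 0.05. This is 35.7% of a short list, against 8.84% of all genes. The median difference was -0.16. Taken relative to all genes this median was -0.18, and -0.38 without phr2 no Pi replicate 3. The 1 that fell in WT, Os03g0343400, is a blue-light photolyase-type gene that bears the symbol PHR2 for another reason and has no known place in Pi signalling. With a difference of 1.44 it is 1 of the 2 above 0, and the counts and medians of the list include it. PHOSPHATE STARVATION RESPONSE 3 (Os02g0139000), a close relative of PHR2, had FPKM of 6.97, 13.8 and 15.7 in control and 58.6, 42 and 16.7 in no Pi leaves of WT, and 27.9, 22.6 and 21.2 in control and 22.8, 23.8 and 22.4 in no Pi leaves of phr2. The WT groups separated and the phr2 groups did not, but the WT change of 1.51 ± 0.44 did not pass (limma adjusted p = 0.0803) but did after rescaling (0.0415) and with voom (0.043), and the difference was -1.56 ± 0.62. It overlaps Os02g0138900 on the other strand.

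Over 40 Pi transporters the medians were -0.03 in WT, 0.10 in phr2 and 0.30 for the difference, which turned to -0.09 after rescaling, with 1 gene on each side at an unadjusted interaction p under 0.05 (5%, below the share of all genes). The median difference minus that of all genes was 0.28, and 0.12 without phr2 no Pi replicate 3. The 2 genes were the chloroplast carrier Os09g0556400, similar to PHT4;5, at -1.63 ± 0.52, and PHOSPHOENOLPYRUVATE/PHOSPHATE TRANSLOCATOR 3 (Os01g0172100), at 1.22 ± 0.54. Of 44 acid phosphatases and S-like RNases, which free Pi from organic molecules, 3 stood above 0 and 5 below (18.2%, against 8.84% of all genes). Their medians were -0.05, -0.01 and -0.05. PURPLE ACID PHOSPHATASE 26 (Os06g0643900), known to act in Pi recycling in rice leaves, had FPKM of 33.9, 41.4 and 49.9 in control and 164, 96.5 and 95.2 in no Pi leaves of WT, and 69.98, 89.7 and 184 in control and 98.8, 80.3 and 60.03 in no Pi leaves of phr2. WT control was below every other library, and phr2 control replicate 3 was the highest of all. The difference was -1.88 ± 0.55 and the WT change of 1.45 ± 0.39 did not pass (limma adjusted p = 0.0685) but did after rescaling (0.0318) and with voom (0.0367).

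Membrane lipid remodelling genes had medians of 0.07, 0.20 and 0.05 over 35 genes. At an unadjusted interaction p under 0.05, 2 stood above and 1 below 0, and this share of 8.57% is about that of all genes. The median difference relative to all genes was 0.03, and 0.05 without phr2 no Pi replicate 3. PHOSPHOLIPASE D ALPHA 5, described above, was on the positive side. Os05g0462301, a phosphatidate phosphatase of the PAH1 type that releases Pi from phosphatidic acid, rose in WT (log2 change 2.68 ± 0.49, limma adjusted p = 0.0332) against 0.60 ± 0.49 in phr2. NON-SPECIFIC PHOSPHOLIPASE C2 (Os01g0955000), chosen after its values were seen, gave -0.73 ± 0.53 in WT and 1.15 ± 0.53 in phr2, neither of which passed.

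Ribosomal protein lists had medians below 0 after Pi withdrawal in both genotypes. The 218 cytosolic genes had medians of -0.84 in WT and -0.51 in phr2, and the 84 organelle genes -0.83 and -0.37. In WT 3 of the cytosolic and 7 of the organelle genes fell and 0 rose, where 1.4% and 0.958% of all genes did. In phr2 5 (2.29%) and 4 (4.76%) were lower at an unadjusted p under 0.05, against 1.81% of all genes. No Pi lay below control without overlap for 82 of the 218 cytosolic genes in WT and 73 in phr2. For the 84 organelle genes these counts were 32 and 6, and over all 22648 genes they were 2924 and 1195. The median difference was 0.32 and 0.39, turning to -0.11 and -0.01 after rescaling, and at an unadjusted interaction p under 0.05 each list held 1 gene above 0 and 2 below, in all 1.38% and 3.57% and so under the 8.84% of all genes. A 40S ribosomal protein S20 gene (Os03g0249400) fell in WT (log2 change -2.15 ± 0.39, limma adjusted p = 0.0332), with -0.24 ± 0.39 in phr2. A chloroplast ribosomal protein L10 gene (Os03g0284400) fell in WT (log2 change -2.26 ± 0.44, limma adjusted p = 0.0385) and was lower without overlap in phr2, at -0.75 ± 0.44, without passing. Relative to all genes the cytosolic median was 0.30, with 0.0066 after quantile normalization, where WT had -0.35 and phr2 -0.36, and with 0.11 without WT no Pi replicate 3 and 0.59 without WT control replicate 3.

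In several stress and hormone lists phr2 no Pi replicate 3 stood apart from its group. The level of 42 jasmonate genes minus the median of all genes was -0.80, -1.17 and 0.71 in phr2 no Pi, against 0.40 to 1.61 in the WT libraries and -0.62 to -0.05 in phr2 control. For 93 AP2/ERF transcription factors it was -0.95, -1.18 and 0.69, and for 73 WRKY factors -0.80, -0.82 and 0.21. The jasmonate median was -0.32 in WT (0.16 after rescaling), 0.33 in phr2 and 0.57 for the difference. Relative to all genes that difference was 0.55, with 0.30 when phr2 no Pi replicate 3 was left out, 0.11 when WT no Pi replicate 2 was left out as well, and 1.15 without WT no Pi replicate 1. For AP2/ERF, WRKY and NAC factors the median difference relative to all genes was 0.18, -0.0038 and -0.17, and 0.08, -0.23 and -0.32 without phr2 no Pi replicate 3. No jasmonate gene passed in WT, and 3 stood above and 1 below 0 at an unadjusted interaction p under 0.05. WRKY GENE 68 (Os04g0605100) fell in WT (log2 change -1.80 ± 0.39, limma adjusted p = 0.0442) and gave 0.08 ± 0.39 in phr2. The NAC factor Os12g0123800 differed by -3.87 ± 1.37, and its WT change did not pass (limma adjusted p = 0.0835), except after rescaling (0.0481).

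**Figure D5:**
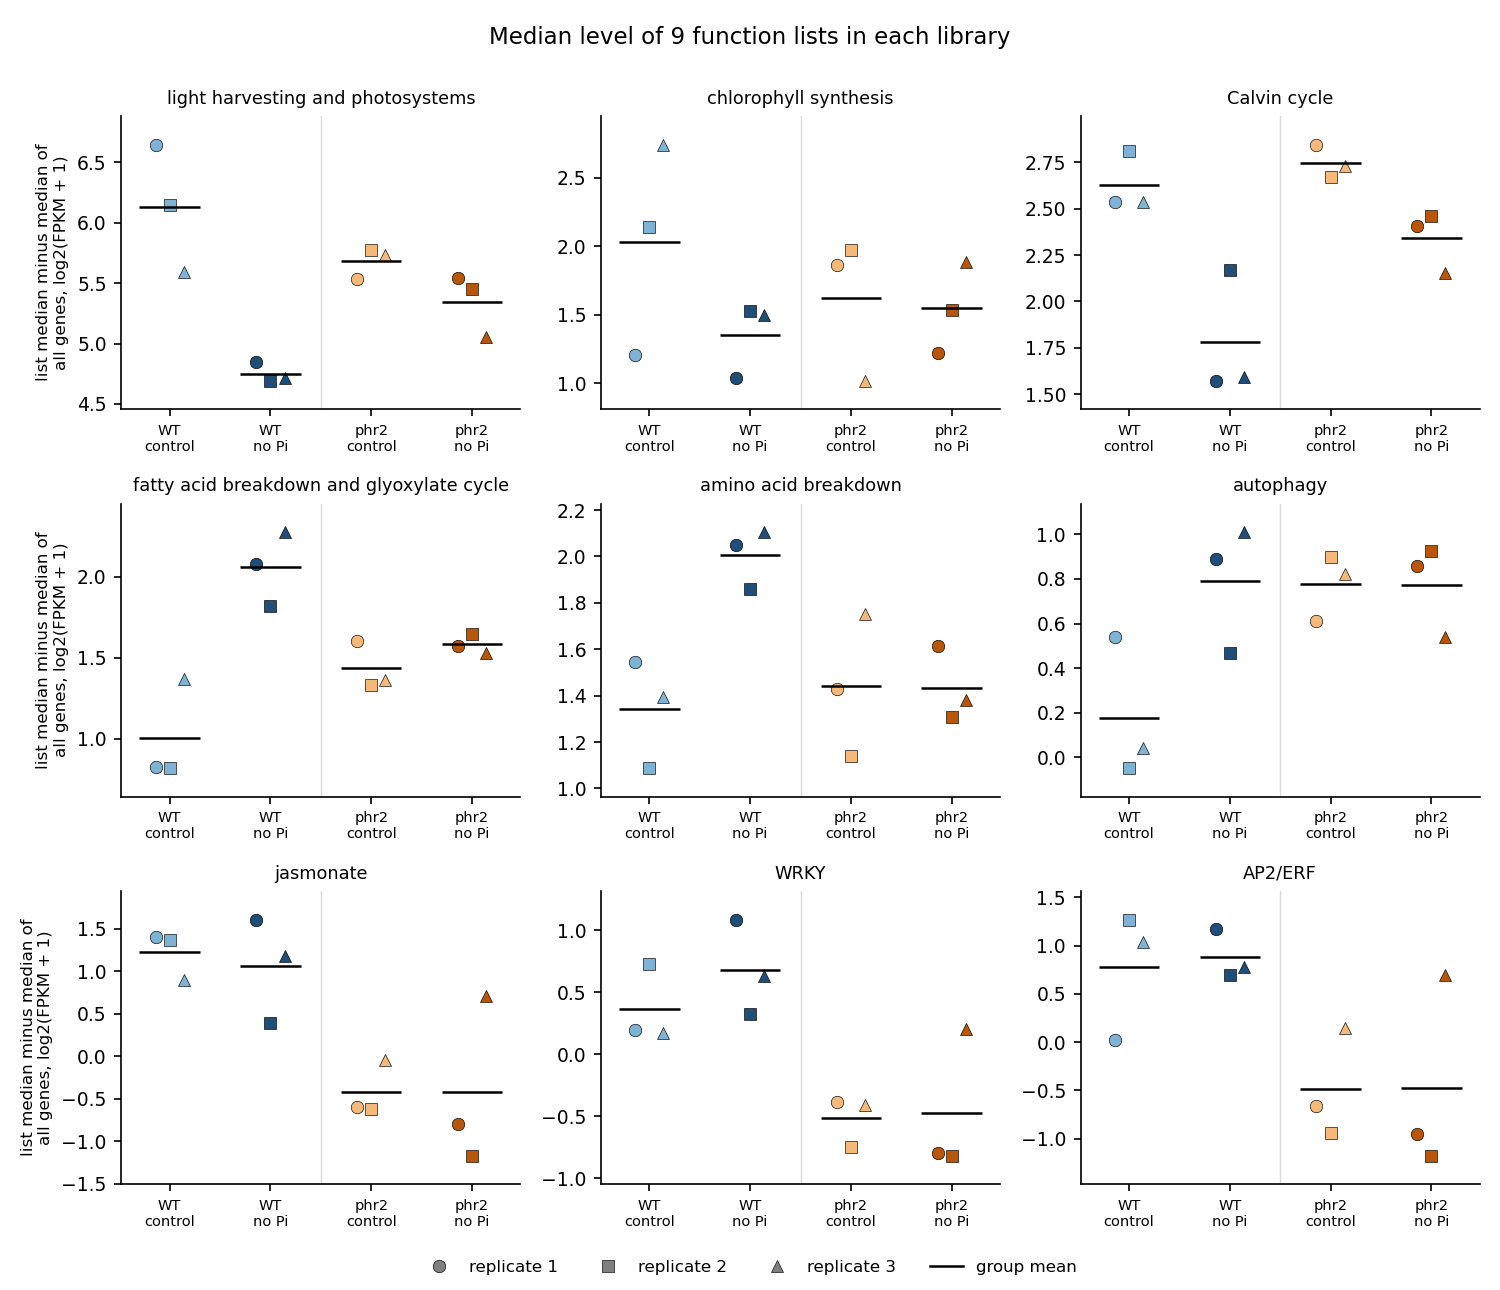
Points give, for each of the 12 libraries, the median log2(FPKM + 1) of a function list minus the median of all genes tested, for 9 lists. Light harvesting is high in WT control and fatty acid breakdown is high in WT no Pi, and in the jasmonate, AP2/ERF and WRKY panels phr2 no Pi replicate 3 lies apart from the 2 other libraries of its group.

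Other lists gave single genes. In the list of iron and other metals, NRAMP6 (Os01g0503400), an iron and manganese transporter, rose in WT (log2 change 3.56 ± 0.67, limma adjusted p = 0.035) against 1.12 ± 0.67 in phr2, and the median difference over 47 genes was -0.45 (-0.47 relative to all genes). A deoxymugineic acid synthase-like gene (Os04g0447600) was low, at FPKM of 1.7, 0.999 and 1.6 in control and 0.483, 0.777 and 0.532 in no Pi leaves of WT, and 0.395, 0.183 and 0.936 in control and 1.08, 1.23 and 1.49 in no Pi leaves of phr2. This gene passed the filter only through phr2 no Pi, so its values are a description. Its groups did not overlap in either genotype and lay in opposite order, and the difference was 1.22 ± 0.40 (limma adjusted p = 0.516). It overlaps a gene on the other strand. Over 15 circadian clock genes the median was 0.51 in WT, -0.32 in phr2 and -0.69 for the difference. Minus the median of all genes, the list's phr2 level was 1.83, 2.15 and 1.97 in control. In phr2 no Pi it was 2.28, 2.26 and 1.09, so only replicate 3 lay below the controls. The WT groups overlapped, at 1.75, 1.59 and 1.10 in control and 1.73, 1.45 and 1.74 in no Pi. In this list 1 gene had an unadjusted interaction p under 0.05. That gene, REVEILLE 1 (Os04g0583900), had FPKM of 0, 0.31 and 0.395 in control and 0.787, 4.94 and 0.433 in no Pi leaves of WT, and 0.994, 1.79 and 27.4 in control and 1.17, 0.367 and 0.549 in no Pi leaves of phr2. The highest value was in phr2 control replicate 3, and the phr2 groups overlapped.

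Of 175 heat shock and folding genes, 4 stood above 0 and 8 below at an unadjusted interaction p under 0.05, and of 91 nitrogen genes 5 and 1. These are 6.86% and 6.59%, under the 8.84% of all genes. The nitrogen median relative to all genes was 0.10, and 0.015 without phr2 no Pi replicate 3. A nitrate reductase gene (Os01g0693700), for the step that starts nitrate assimilation, gave -1.73 ± 0.42 in WT, which did not pass (limma adjusted p = 0.0521), and -0.17 ± 0.42 in phr2. Among 176 cytochrome P450 genes, 11 stood above and 9 below (11.4%), with P-450 76M10 (Os08g0507100) at -4.74 ± 1.25 and CYTOCHROME P450 81A5 (Os03g0760000) at -5.35 ± 1.46. DNA replication and histone genes had 2 above and 1 below of 96 (3.12%), and root and endodermis genes 3 and 2 of 30. The root and endodermis median relative to all genes was 0.03, and 0.19 without phr2 no Pi replicate 3. Dividing-cell markers summed to FPKM of 3527 to 19620 over all libraries, both extremes in WT, and their part in any result was not tested.

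Few genes met the size limits for a response in phr2 only. Among the 2002 genes at an unadjusted interaction p under 0.05, 1005 (50.2%) met the size limits for WT only and 643 (32.1%) had mean changes in opposite directions. A further 296 (14.8%) were unequal and 58 (2.9%) met the limits for phr2 only. Responses spread more widely in WT (SD 0.96 against 0.62), so a fixed size limit favours WT only. These classes were not counted over all genes, and the shares are a description. Of the 26 genes called without phr2 control replicate 1, 11 met the limits for phr2 only by their changes in the fit of all 12 libraries. The following phr2 examples were chosen after their values were seen. The gene P-450 71Z2 (Os07g0217600) had FPKM of 0.0818, 0 and 0 in control and 0.101, 0 and 0.0554 in no Pi leaves of WT, and 1.29, 15.4 and 17.2 in control and 0.0522, 0 and 0 in no Pi leaves of phr2. It was detected above FPKM 1 only in the 3 phr2 control libraries, so it was tested through that group alone. Its values are therefore a description and no support for a response in phr2 only. The difference was -3.15 ± 0.87 (unadjusted p = 0.00359, limma adjusted p = 0.471). Without phr2 control replicate 1, the lowest of its group at 1.29, it passed, at -4.12 (limma adjusted p = 0.00171). A bHLH factor gene (Os04g0300600) had FPKM of 39.5, 45.1 and 33.4 in control and 37.8, 24.2 and 26.2 in no Pi leaves of WT, and 7.1, 15.4 and 10.4 in control and 17.2, 24.9 and 30.9 in no Pi leaves of phr2. Its phr2 libraries separated, with no Pi above control, while the WT libraries overlapped and were mostly higher than phr2. Further members were a protein phosphatase 2C gene (Os05g0457200, 2.27), a subtilase gene (Os04g0120100, 3.36) and the thaumatin-like gene Os12g0630200 (-3.72), given as differences on the log2 scale. The thaumatin-like gene had FPKM of 2.57, 15.3 and 26.4 in phr2 control. Too few other libraries reached FPKM 1, so it too passed the filter only through that group. Its values are likewise no support for a response in phr2 only. The subtilase gene had FPKM of 11.9, 0.271 and 0 in phr2 control. It passed without phr2 control replicate 1, the highest of that group, at 4.54 (limma adjusted p = 0.00948).

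The genes called in WT were read in the mutant, whose libraries took no part in choosing them beyond the shared estimate of spread. The 217 genes that rose in WT had a median change of 2.11 there and of 0.25 in phr2. Of these, 157 (72.4%, against 51.8% of all genes) had the same direction in phr2 and 9 (4.15%) reached at least 0.5 times their WT change. The 317 genes that fell in WT had medians of -2.03 and -0.48. Of these, 271 (85.5%, against 48.2% of all genes) had the same direction and 28 (8.83%) were at that size or more. Without phr2 no Pi replicate 3 the phr2 medians were 0.27 and -0.46. These sets were chosen for their size in WT, so the lower values in phr2 are a description and no test. In the other direction, 885 genes had an unadjusted p under 0.05 in phr2 (474 higher and 411 lower, with voom 579 and 280). This limit is looser than that of the WT sets above, so these shares are not compared with theirs. The 474 higher in phr2 no Pi had a median of 1.45 in phr2 and 0.34 in WT. In WT 59.9% had the same direction (49.4% of all genes) and 34.2% were at 0.5 times the phr2 size or more. For the 411 lower genes the medians were -1.26 and -0.86, with 81.3% in the same direction and 60.1% at 0.5 times the phr2 size or more.

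DGP1 was read in the WT and phr2 leaves together with GLK2, and none of the 12 libraries is labelled as a DGP1 mutant. DEEP GREEN PANICLE 1 (Os01g0837600) had FPKM of 13943, 464 and 473 in control and 931, 317 and 429 in no Pi leaves of WT, and 169.6, 216 and 354 in control and 133, 248 and 675 in no Pi leaves of phr2. WT control replicate 1 was far above all others, the groups overlapped in both genotypes, and the difference of 1.79 ± 1.56 did not pass (limma adjusted p = 0.732). GOLDEN2-LIKE2 (Os01g0239000), a transcription factor of chloroplast development, had FPKM of 249, 70.1 and 43 in control and 128, 53.6 and 108 in no Pi leaves of WT, and 39.3, 66.2 and 50.2 in control and 89.8, 67.7 and 47.1 in no Pi leaves of phr2. The groups overlapped in both genotypes, and the difference was 0.38 ± 0.81 (limma adjusted p = 0.893), with a sign that turned to -0.34 without WT control replicate 1.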

How the data were processed

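Leaf messenger RNA of 12 libraries was read from 1 table of FPKM values that the authors deposited, with a row per transcript. Bowtie 0.12.2, HISAT2 2.0 and StringTie 1.3.0 are named, without roles, in the submitters' processing notes; the notes name only a mouse build, and no source gives the rice assembly or strand use, and coordinates are those of the table. Transcript lengths, another deposited column, served to recover reads: steps of the FPKM values gave whole reads for 100% of values, within 0.01 reads plus 1e-05 of the value. FPKM was summed per gene, and genes with FPKM of at least 1 in at least 3 libraries were kept. Depth was 10109727 to 13122430 recovered reads per library. On log2(FPKM + 1), limma 3.58.1 in R 4.3.3 fitted 4 group means with a variance trend, and Benjamini-Hochberg adjustment covered 22648 genes, with a threshold of 0.05. Folds on this scale understate changes of low genes. Scripts were tested on simulated data. Figures were drawn with matplotlib 3.10.9.

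The genes and lists were chosen with earlier results of these data known. Named are PHR2, DGP1 and GLK2, the 8 smallest interaction p on each side of 0 among annotated genes that reached FPKM 5 in some group mean, and the 2 smallest p of each list. The replicate numbers do not pair libraries. Alternatives covered scaling, filters, pseudocounts, voom on recovered reads, weights and libraries left out.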

Additional observations from a re-analysis of the deposited data

Results flagged for a closer look

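In 7 of the genes named above, the ranges of control and no Pi did not overlap in either genotype and lay in opposite order; this holds for 107 of all genes tested (0.472%). The test of the difference did not pass for any of them, with a limma adjusted p of 0.422 for the first 6 and 0.516 for the last. Above 0, the differences of responses on the log2 scale were 2.72 for PHOSPHOLIPASE D ALPHA 5 (Os06g0604300), 3.39 for the disease resistance response gene Os11g0215100 and 2.72 for SULPHATE TRANSPORTER 2;1 (Os03g0195500). Below 0, they were -3.24 for Os02g0730075, -3.85 for PIN LIKES 1 (Os09g0491740) and -4.35 for the dioxygenase gene Os10g0558700. The last, a deoxymugineic acid synthase-like gene (Os04g0447600), had 1.22 at FPKM below 2 in all libraries. Os02g0730075 passed the filter only through WT no Pi, and Os04g0447600 only through phr2 no Pi. The values of both are a description and no support for a difference.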

How the results depend on the processing

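Over 72 named genes and all settings, 5 of 1848 interaction values turned sign and 4 passed the test. Most of these genes were chosen for a large difference and the smallest adjusted p was 0.422, so these counts do not measure stability. The sign turned for GOLDEN2-LIKE2 (Os01g0239000) to -0.057 after rescaling, -0.0056 with voom, -0.10 with WT control replicate 1 and phr2 no Pi replicate 3 both left out and -0.34 without WT control replicate 1 (highest 0.92). For DGP1 (Os01g0837600) it turned to -0.47 with that pair left out. The cause was not tested for any of these.

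Interaction calls were 0 in all settings with 12 libraries, and 0 to 26 with 1 left out: 5 without WT no Pi replicate 2, where Os02g0730075 (-3.71) and Os10g0558700 (-5.21) passed, and 26 without phr2 control replicate 1, where OVATE FAMILY PROTEIN 3 (Os01g0732300, 3.93) and Os10g0463800 (-4.94) passed. Of the 26, 23 had the larger change in phr2 in the fit of all 12 libraries. Among them were Os02g0772150 (7.22), Os06g0685400 (7.26) and P-450 71Z2 (Os07g0217600, -4.12), given as differences without phr2 control replicate 1. Leaving out 1 library gave 1143 to 3350 genes at an unadjusted interaction p under 0.05, 16 to 110 under 0.001, 4 to 69 of these in WT only, 0 to 3155 WT calls and 0 to 33 phr2 calls. WT calls were 86 without a filter, 1093 after rescaling, 241 after quantile normalization, 998 with voom, 7011 with array weights (0.406 to 3.88), 0 in a fit to WT alone, and 114 with WT control replicate 1 and phr2 no Pi replicate 3 left out. Calls in phr2 were 1 with pseudocount 5, without a filter, with array weights and in a fit to phr2 alone. Array weights gave 4958 genes under 0.05, 286 under 0.001 and 143 in WT only. The WT only count was 9 with pseudocount 0.1, 27 with the pair above left out, and 36, with 76 under 0.001, when WT no Pi replicate 2 and phr2 no Pi replicate 3 were left out. After seeing the data, WT control replicate 3, WT no Pi replicate 2 and phr2 no Pi replicate 3 were all left out: 3272 under 0.05, 127 under 0.001, 66 in WT only, 2213 WT calls.

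List medians relative to all genes moved by more than their spread in these cases: sugar transporters 0.092 without a filter, light harvesting 0.19 after quantile normalization and 1.24 with array weights, and Pi signalling -0.56, fatty acid breakdown -0.92 and amino acid breakdown -0.84 with array weights. With the 3 libraries left out, Pi transporters were -0.0126, fatty acid breakdown -0.92, WRKY -0.52, NAC -0.50 and root markers 0.47. With 1 library left out, sucrose and starch ranged from 0.0497 to 0.60, fatty acid breakdown from -0.96 to -0.45 and Calvin cycle from 0.13 to 0.53. The median of all genes was -0.32 after rescaling and -0.35 with voom.

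Replicate numbers do not pair the libraries: deviations of same-numbered libraries correlated from -0.43 to 0.30, with 5 of 18 pairs over 0.1. With the replicate block there were 0 interaction calls, 174 WT calls, 0 phr2 calls, 1963 genes under 0.05 and 43 under 0.001. Depth limits genes of low FPKM, whose folds the pseudocount shrinks.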
